A study of Arabidopsis thaliana with 8 samples.

Results

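The 10 genes described here encode seed storage proteins and the proteins that coat seed oil bodies, and they were followed in Arabidopsis seedlings. They were 3 cruciferins (CRA1, CRB and CRC, the 12S globulins), 5 seed storage albumins (SESA1 to SESA5, the 2S albumins) and 2 oleosins (OLEO1 and OLEO2), taken by locus code from the 33557 genes in the files. The genes were chosen by function but with their FPKM in these libraries already known. The levels are therefore given as a description, and nothing is read from the test results printed for them. RNA was sequenced from whole seedlings aged 7 days, which had germinated on medium after cold stratification and had grown in long days. The 4 genotypes, with 2 libraries each, were the wild type Col-0, each single mutant (dek3-2 or dek4-2) and dd-2, in which both mutations are combined. The study asked which genes change in expression when DEK3 and DEK4 are mutated. DEK proteins are chromatin proteins. The nature of the mutant alleles, the number of seedlings in a library and the parent seed lots are not given in the sources used here, and nothing says how far the replicates were grown apart, so their spread may be partly technical.

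Storage proteins and oleosins are made while the embryo matures. Cruciferins and albumins are packed into protein storage vacuoles, and oleosins cover the surface of the oil bodies and keep them from fusing. Their transcription depends on the regulators LEC1, ABI3, FUS3 and LEC2 together with bZIP factors, and it is shut down at germination, when VAL proteins, the chromatin remodeller PICKLE (PKL) and Polycomb repression silence the programme. The B3 domain regulators bind the RY element and the bZIP factors bind the G-box and related elements. Transcripts stored in the dry seed decline as the seedling grows, and a green seedling normally holds few of them.

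The 4 albumin genes SESA1 to SESA4 lie side by side in 1 array of 6955 bp (chr4:13607329-13614283), and SESA5 lies alone on chromosome 5 (chr5:22238358-22239187). The stretch from position -130 to -41, counted from the annotated gene start, is shown for the 5 albumins, because they share 1 arrangement of motifs there, with OLEO1 and CRB beside them as a gene with several motifs and a gene with none. Capitals mark the RY core, searched as CATGCA on both strands, and the G-box, CACGTG, which reads the same on both strands. Sequences are from the RefSeq genome, build TAIR10.1, read in the direction of the gene.
SESA1, chr4:13607199-13607288, plus strand: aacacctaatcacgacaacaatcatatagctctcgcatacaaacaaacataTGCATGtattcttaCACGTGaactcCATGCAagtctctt
SESA2, chr4:13609211-13609300, plus strand: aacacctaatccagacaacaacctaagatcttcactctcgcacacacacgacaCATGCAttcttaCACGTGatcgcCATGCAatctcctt
SESA3, chr4:13611666-13611755, plus strand: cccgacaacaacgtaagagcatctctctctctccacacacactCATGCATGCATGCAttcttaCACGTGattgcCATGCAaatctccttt
SESA4, chr4:13613466-13613555, plus strand: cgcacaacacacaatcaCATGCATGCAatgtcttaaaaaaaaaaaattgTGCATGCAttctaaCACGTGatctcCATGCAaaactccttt
SESA5, chr5:22239228-22239317, minus strand: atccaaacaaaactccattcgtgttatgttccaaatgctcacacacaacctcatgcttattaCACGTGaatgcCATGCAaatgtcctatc
OLEO1, chr4:12900300-12900389, plus strand: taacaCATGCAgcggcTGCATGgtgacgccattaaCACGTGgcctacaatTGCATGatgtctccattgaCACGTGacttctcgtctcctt
CRB, chr1:985621-985710, plus strand: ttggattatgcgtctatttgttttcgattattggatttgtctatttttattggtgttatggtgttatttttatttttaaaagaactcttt

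In all 5 albumins a G-box was followed by an RY core, with 5 bases between them. The first base of the G-box lay 65 bases before the start in SESA1 and SESA2, 67 in SESA3 and SESA4 and 68 in SESA5. The RY core after it lay 54 bases before the start in SESA1 and SESA2, 56 in SESA3 and SESA4 and 57 in SESA5. Over the window from 250 bases before to 50 bases after the start, the RY core was found in 9 of the 10 genes, in 8 of them at least 2 times with overlapping matches counted separately, and CRB had none. Of all 27443 protein-coding promoters of the same length, 9.72% held it and 1.94% held it at least 2 times. The G-box was found in 6 of the 10 genes, the 5 albumins and OLEO1, against 7.68% of all promoters. Both motifs stood together in those 6 genes, against 0.845% of all promoters. CRA1, CRC and OLEO2 held the RY core alone. These matches describe the letters in the window and are no evidence of binding in these seedlings.

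In 7 of the 10 genes the files and the reference gave the same start and end, and in 9 the same 5′ end. The locus that the files list for OLEO1 (chr4:12900430-12903125) was wider than the gene in the reference, so its value may hold other transcripts. The coding sequences of SESA1 to SESA4 were alike, with 82.6% (SESA1 and SESA3) to 93.7% (SESA2 and SESA3) of aligned bases identical and identical runs of up to 49 bp. How reads were divided among these 4 genes is therefore uncertain, while SESA5 shared 63.8% to 66.0% with them and no run over 14 bp. CRA1 and CRB shared 76.2% of aligned coding bases, CRA1 and CRC 64.5%, CRB and CRC 64.8%, and OLEO1 and OLEO2 55.6%.

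Levels are in FPKM, the fragments on a gene per kilobase of its length, scaled for library depth. A library summed to 839267 to 873796 FPKM, with 18504 to 19283 genes at 1 FPKM or more. On the labels, DEK3 stood at 13.3 to 19.9 FPKM in the 4 libraries labelled dek3-2 or dd-2 and at 47.3 to 80.7 in the other 4, and DEK4 at 10.3 to 18.4 in those labelled dek4-2 or dd-2 and at 23.7 to 38.0 in the others. Leaf RNA was plain in every library, with the Rubisco small subunit gene RBCS1A at 10721 to 15159 FPKM, and so was root RNA, with the root glucosidase gene PYK10 at 870 to 1439. The balance of leaf and root markers was not the same in all genotypes. The 5 root markers summed to 882 to 931 FPKM in Col-0, 959 to 1049 in dek3-2, 1012 to 1017 in dek4-2 and 1222 to 1463 in dd-2. The 4 leaf markers summed to 18862 to 22242, 18237 to 18250, 18071 to 20560 and 15976 to 16673. PYK10 made up most of the root sum. Gene by gene, the median root difference from Col-0 in log2(FPKM + 1) was 0.15 in dek3-2 (4 of 5 above 0). It was -0.14 in dek4-2 (1 of 5 above 0) and 0.56 in dd-2 (5 of 5). Libraries of 1 genotype differed for the storage genes: dek3-2 replicate 1 and dd-2 replicate 2 stood apart from their own replicates, so the median differences of dek3-2 and dd-2 from Col-0 are given below with and without them. In bulk seedlings, fewer cells or seedlings carrying a transcript and less of it per cell cannot be told apart.

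Storage transcripts were low in the Col-0 and dek4-2 libraries and in dd-2 replicate 1, plentiful in dek3-2 replicate 1 and at intermediate levels in dd-2 replicate 2 and, lower, in dek3-2 replicate 2, where 7 of the 10 reached 1 FPKM. All 10 genes were highest in dek3-2 replicate 1, at 42.4 to 323 FPKM, and 9 were second in dd-2 replicate 2. In the remaining 6 libraries the genes ran from 0.0838 to 5.15 FPKM, and for 9 of the 10 the highest of these 6 values was in dek3-2 replicate 2. The 10 genes together made up 0.215% of the FPKM in dek3-2 replicate 1 and 0.0148% in dd-2 replicate 2, against 0.00246% in dek3-2 replicate 2 and 0.000345% to 0.00104% in the other 5.

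**Figure D1:**
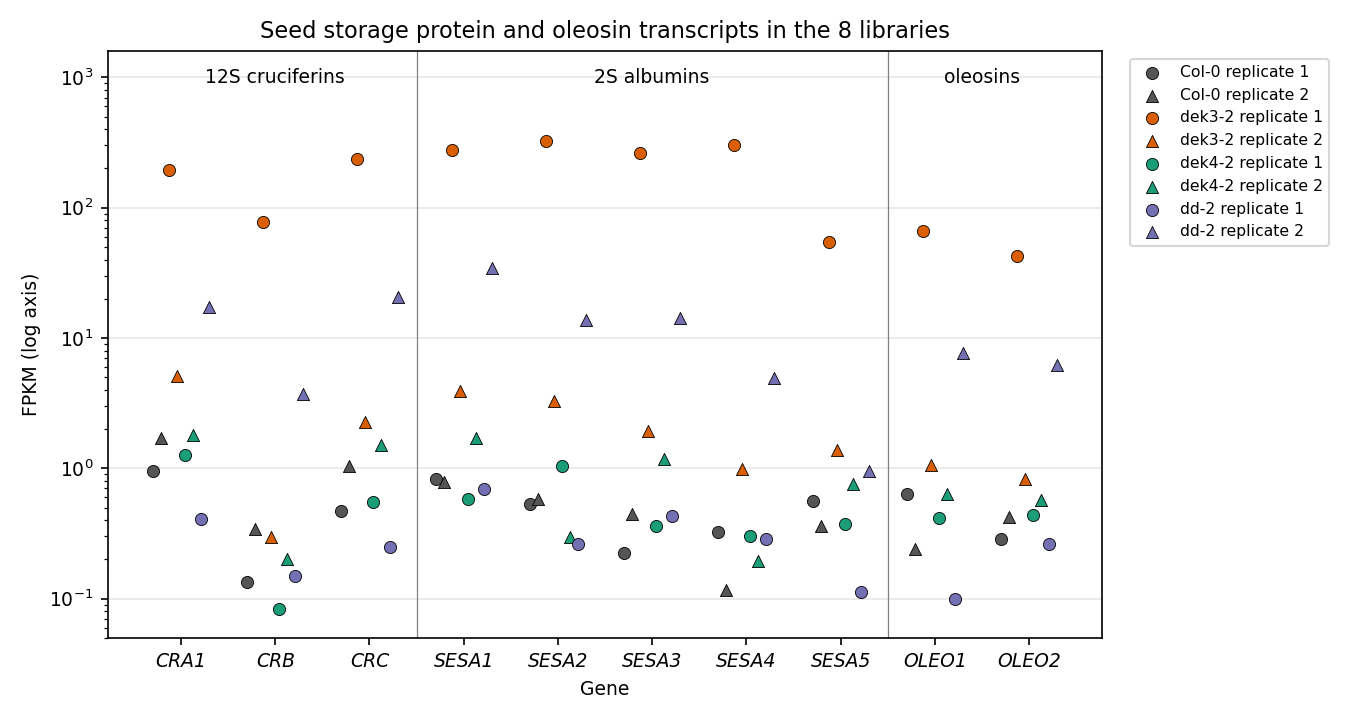
Level of the 10 genes in each library, as FPKM on a log axis, with 1 point per library, colour for genotype and shape for replicate. The points of dek3-2 replicate 1 lie at 42.4 to 323 FPKM, above every other library in each gene, and those of dd-2 replicate 2 lie next in all genes but SESA5.

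The cruciferins are the main globulins of the Arabidopsis seed. CRA1 (AT5G44120, chr5:17756264-17758288) stood at 0.953 and 1.71 FPKM in Col-0, 196 and 5.15 in dek3-2, 1.27 and 1.79 in dek4-2, and 0.411 and 17.1 in dd-2, in the order of the replicate numbers. Both dek3-2 libraries lay above both Col-0 libraries, the dek4-2 libraries overlapped them, and the dd-2 libraries lay on either side. CRA1 had the highest level of the 10 genes in both Col-0 libraries and in dek3-2 replicate 2. CRC (AT4G28520, chr4:14087556-14089796) stood at 0.467 and 1.04 FPKM in Col-0, 237 and 2.27 in dek3-2, 0.547 and 1.51 in dek4-2, and 0.247 and 20.8 in dd-2. It followed the order of CRA1 in the 4 highest libraries. CRB (AT1G03880, chr1:985751-988146) was the lowest cruciferin in every library, at 0.134 and 0.341 FPKM in Col-0, 77.8 and 0.298 in dek3-2, 0.0838 and 0.203 in dek4-2, and 0.148 and 3.74 in dd-2. CRB was the 1 gene of the 10 whose dek3-2 replicate 2 value lay between the Col-0 libraries.

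The 2S albumins are small sulphur-rich storage proteins. SESA1 (AT4G27140, chr4:13607329-13608031) stood at 0.823 and 0.785 FPKM in Col-0, 275 and 3.92 in dek3-2, 0.583 and 1.70 in dek4-2, and 0.695 and 34.4 in dd-2. It was the most abundant of the 10 genes in dd-2 replicate 2 and its Col-0 values were close together. SESA2 (AT4G27150, chr4:13609341-13610075) stood at 0.536 and 0.581 FPKM in Col-0, 323 and 3.27 in dek3-2, 1.04 and 0.297 in dek4-2, and 0.262 and 13.7 in dd-2. It had the highest level in dek3-2 replicate 1. SESA3 (AT4G27160, chr4:13611796-13612563) stood at 0.224 and 0.448 FPKM in Col-0, 262 and 1.94 in dek3-2, 0.363 and 1.18 in dek4-2, and 0.432 and 14.3 in dd-2. SESA4 (AT4G27170, chr4:13613596-13614283) stood at 0.326 and 0.115 FPKM in Col-0, 301 and 0.992 in dek3-2, 0.300 and 0.195 in dek4-2, and 0.286 and 4.93 in dd-2. Of the 4 array genes SESA4 was second highest in dek3-2 replicate 1 and lowest in the other dek3-2 library and in dd-2 replicate 2. SESA5 (AT5G54740), the gene outside the array, stood at 0.557 and 0.360 FPKM in Col-0, 54.7 and 1.39 in dek3-2, 0.375 and 0.759 in dek4-2, and 0.111 and 0.959 in dd-2. It was the exception in dd-2 replicate 2, where it lay below dek3-2 replicate 2.

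Oleosins are small hairpin proteins anchored in the oil body surface, and OLEO1 and OLEO2 are seed forms. OLEO1 (AT4G25140) stood at 0.632 and 0.241 FPKM in Col-0, 66.7 and 1.06 in dek3-2, 0.419 and 0.632 in dek4-2, and 0.0994 and 7.63 in dd-2. OLEO2 (AT5G40420, chr5:16173393-16174783) stood at 0.285 and 0.423 FPKM in Col-0, 42.4 and 0.822 in dek3-2, 0.440 and 0.570 in dek4-2, and 0.262 and 6.24 in dd-2. Both oleosins had the same 3 highest libraries as CRA1, in the same order, and both were lowest in dd-2 replicate 1.

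The low values rest on few fragments. Low FPKM values of single-exon genes fell on whole multiples of 1 fragment, which gave fragment numbers for the albumins. In Col-0 the 5 albumins held 2 to 14 fragments each, and in dd-2 replicate 1 they held 2 to 10. In dek3-2 replicate 2 they held 15 (SESA4) to 61 (SESA1), and in dd-2 replicate 2 they held 15 (SESA5) to 431 (SESA1). In dek3-2 replicate 1 they held about 1161 (SESA5) to 5835 (SESA2), so counting error there was small, though such high numbers are approximate. The order of the 5 lowest libraries for SESA4, with 2 to 5 fragments in each, was not resolved at this depth.

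Between dek3-2 replicate 1 and dd-2 replicate 2, libraries of different genotypes, the levels did not differ by 1 common factor. The ratio of dek3-2 replicate 1 to dd-2 replicate 2 had a median of 14.9 over the 10 genes and ran from 6.80 (OLEO2) to 61.1 (SESA4). It was 7.99 for SESA1, 8.74 for OLEO1, 11.4 for both CRA1 and CRC, 18.3 for SESA3, 20.8 for CRB, 23.5 for SESA2 and 57.0 for SESA5. SESA1 and SESA4, which lie in the same array, were thus at either end of the albumins. SESA4 made up 16.4% of the summed FPKM of the 10 genes in dek3-2 replicate 1 and 3.98% in dd-2 replicate 2, SESA1 14.97% and 27.8%, and SESA5 2.98% and 0.774%. By class, cruciferins took 27.8% of the sum in dek3-2 replicate 1 and 33.7% in dd-2 replicate 2, albumins 66.2% and 55.1%, and oleosins 5.94% and 11.2%. In Col-0 the albumins took 49.95% and 37.8% of a sum of 4.94 and 6.05 FPKM. The array genes are alike in sequence, and the part of read division in the contrast among SESA1 to SESA4 was not tested.

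**Figure D2:**
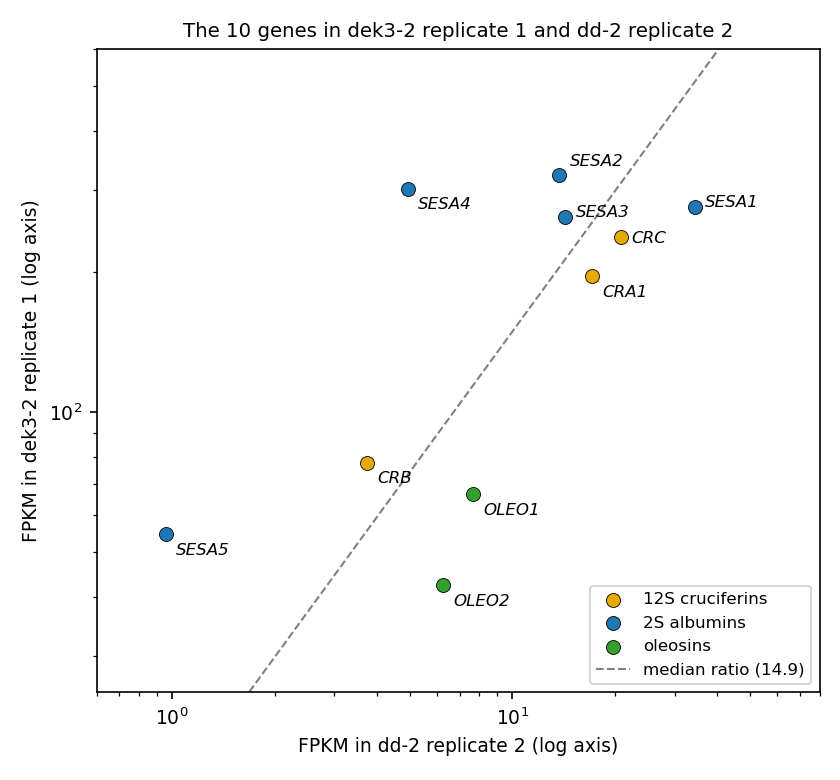
Level of each of the 10 genes in dek3-2 replicate 1 against dd-2 replicate 2, as FPKM on log axes, coloured by class, with a dashed line at the median ratio of 14.9. SESA4 and SESA5 lie far above the line, at ratios of 61.1 and 57.0, and SESA1, OLEO1 and OLEO2 lie below it, at 6.80 to 8.74.

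By genotype, the means followed the libraries that stood apart, and in dek3-2 and dd-2 the SDs exceeded the means. For CRA1 the dek3-2 mean was 100.4 ± 135 FPKM (SD, n = 2), the dd-2 mean 8.78 ± 11.8, the dek4-2 mean 1.53 ± 0.368 and the Col-0 mean 1.33 ± 0.535. For SESA1 the dek3-2 mean was 139 ± 192 FPKM (SD, n = 2), the dd-2 mean 17.5 ± 23.8, the dek4-2 mean 1.14 ± 0.790 and the Col-0 mean 0.804 ± 0.027. Without dek3-2 replicate 1 and dd-2 replicate 2 the single values left were 5.15 and 0.411 FPKM for CRA1 and 3.92 and 0.695 for SESA1. In this order of means, dek3-2 and dd-2 overlapped in 9 of the 10 genes, since dek3-2 replicate 2 lay below dd-2 replicate 2 in all but SESA5. On the log2(FPKM + 1) scale, which understates changes of low genes, the median difference of the 10 genes from Col-0 was 3.96 in dek3-2 (range 2.72 to 4.58), 0.11 in dek4-2 (-0.11 to 0.37) and 1.17 in dd-2 (0.02 to 2.10). Without dek3-2 replicate 1 the dek3-2 median was 0.82, and without dd-2 replicate 2 the dd-2 median was -0.20. Without the other dek3-2 library it was 6.76, and without the other dd-2 library it was 2.79. The same medians over the 19017 genes tested were 0.04, 0.00 and 0.08. The 3 comparisons share the 2 Col-0 libraries. In dd-2 the root markers also differed from Col-0, with a median of 0.56 and 5 of 5 above 0. Of these, 3 were at an unadjusted p under 0.05, against 18.6% of all genes. The count called was 0, against 0.252% of all genes (PER64 had the lowest limma adjusted p, 0.0612). The leaf markers were split, with RBCS1A at -0.37 and RCA at -0.46 (limma adjusted p = 0.161 and 0.121). CAB1 and CAB2 went the other way, at 0.09 and 0.23 (limma adjusted p = 0.778 and 0.604). The part of this balance of organs in the dd-2 values of the storage genes was not tested.

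All 10 genes reached the mean of 1 FPKM needed to enter the fit, but 8 would have without dek3-2 replicate 1 and 3 without that library and dd-2 replicate 2. In limma's test over all 19017 genes, with Benjamini-Hochberg adjustment and a threshold of 0.05, 0 of the 10 were called in dek3-2, where 0.0421% of all genes were called, 0 in dek4-2 (0.021%) and 0 in dd-2 (0.252%). At an unadjusted p under 0.05 the count was again 0 of 10 in each, against 3.44%, 1.97% and 18.6% of all genes (655, 374 and 3529). With dek3-2 replicate 2 left out, SESA5 was called higher in dek3-2 and the other 9 were not, where 0.0631% of all genes were called higher, and that call rests on dek3-2 replicate 1, the library that stood apart, as the 1 dek3-2 sample. Both dek3-2 libraries lay above both Col-0 libraries in 9 of the 10 genes, against 20.9% of all genes tested. That order was seen in 1 gene for dek4-2, OLEO2, against 12% of all genes, and in 0 for dd-2, against 38%. These are the values that led to the choice of the genes, and they also set which genes passed the filter. Nothing is therefore read from the calls, the unadjusted p or these counts. In dek3-2 replicate 2 taken alone, 4 of the 10 genes were at least 1 higher than the Col-0 mean on the log2 scale, against 0.258% of all genes. In dd-2 replicate 1 it was 0, against 0.805%. These counts use the values known when the genes were chosen, so nothing is read from them either.

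Most genes for other seed globulins and oil body proteins, outside the 10, were highest in the same library. Their lists too were chosen with earlier results of these data known. The 4 other seed globulins were all highest in dek3-2 replicate 1 and second in dd-2 replicate 2. PAP85, which encodes a vicilin-like globulin of the cupin family, stood at 12.5 FPKM in dek3-2 replicate 1, 3.31 in dd-2 replicate 2 and 0.394 to 0.778 in the other 6. The cruciferin relative CRD stood at 6.69 and 1.11 in those libraries, the cupin family gene AT2G28490 at 7.97 and 0.771, and the cupin family gene AT2G18540 at 0.826 and 0.444. Of the 8 other oil body proteins, 6 were highest in dek3-2 replicate 1 and the same number second in dd-2 replicate 2. OLEO4 stood at 23.5 and 6.46 FPKM against 2.53 to 3.91 elsewhere, the oleosin family gene AT3G01570 at 12.5 and 3.61, OLEO3 at 6.78 and 1.65, and the caleosin gene CLO1, whose product binds calcium at the oil body, at 7.71 and 1.08. HSD1, which encodes a steroleosin, was listed at 0 in all 8 libraries. Among the seed forms OLEO4, and not OLEO1 or OLEO2, was thus the most abundant oleosin transcript per length in Col-0, at 3.79 and 2.53 FPKM, while in dek3-2 replicate 1 OLEO1 and OLEO2 exceeded it.

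**Figure D3:**
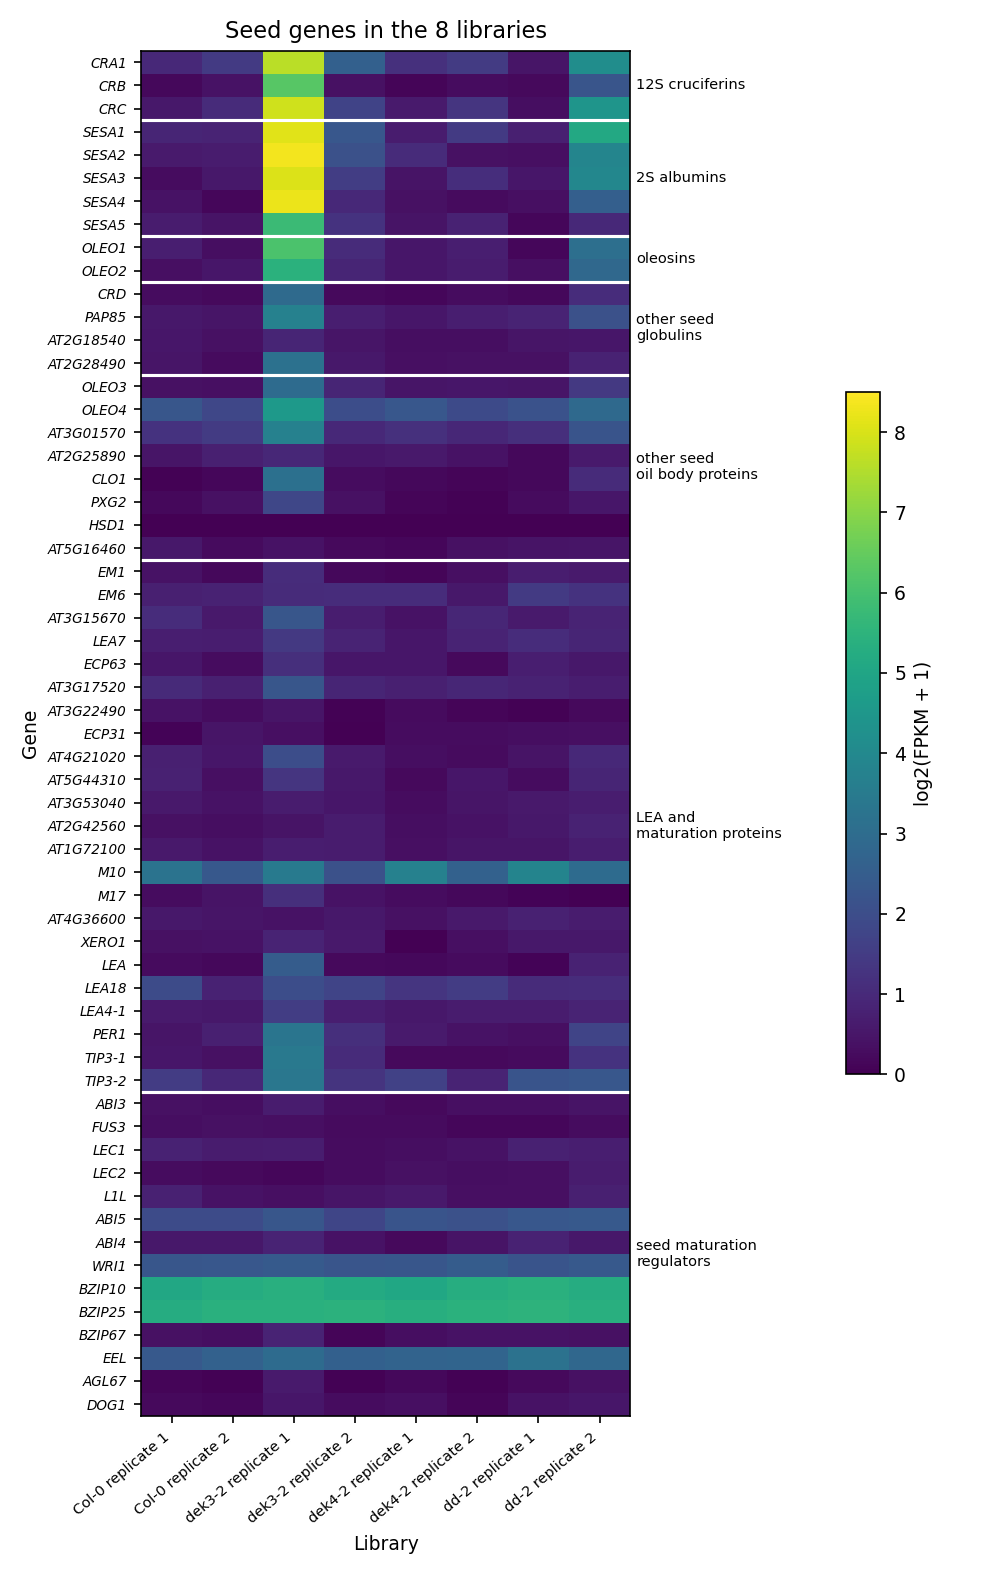
Level of the 10 genes, other seed maturation genes and their regulators in each library, as log2(FPKM + 1) by colour, with genes in rows and libraries in columns. The column of dek3-2 replicate 1 is bright across the 10 genes and many other storage and oil body genes, while the bZIP regulators BZIP10 and BZIP25 look alike in all 8 columns.

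Genes for LEA proteins, which protect the drying embryo, and other maturation products followed less evenly. Of 23 such genes, 17 were highest in dek3-2 replicate 1 and 11 second in dd-2 replicate 2. TIP3-1, which encodes a seed vacuole water channel, stood at 9.80 and 1.36 FPKM in these libraries, TIP3-2 at 9.31 and 3.95, and the seed peroxiredoxin gene PER1 at 8.77 and 2.36. M10 was the most abundant of the list and took another course, with 3.35 to 13.2 FPKM and its highest value in dd-2 replicate 1. The 6 genes listed as markers of the dry or imbibed seed (EM1, EM6, PER1, TIP3-1, CLO1 and M17) summed to 29.7 FPKM in dek3-2 replicate 1, with 5 of the 6 highest there, to 6.69 in dd-2 replicate 2, to 4.06 in dek3-2 replicate 2 and to 1.43 to 2.92 in the other 5, and their part in the result was not tested. The sum came mostly from PER1, TIP3-1 and CLO1. EM1 and EM6, late embryogenesis genes of the dry seed, were low: EM1 stood at 1.11 FPKM in dek3-2 replicate 1, and EM6 at 1.08 there and at 1.70 in dd-2 replicate 1. M17 was listed at 0 in dd-2 replicate 2 and stood at 1.22 in dek3-2 replicate 1. The endosperm markers EPR1 (0.288 FPKM) and EXPA2 (0.230) were also low in that library, and EPR1 was highest, at 1.72, in dd-2 replicate 2. The tapetal oleosins GRP14, GRP16, GRP17 and GRP19, pollen coat relatives of the seed oleosins, ran from 0 to 0.340 FPKM in all libraries.

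The 35 seed globulin, oil body, LEA and maturation genes outside the 10 were taken as 1 list. Of these, 15 reached the level for testing and 0 were called in any mutant, with background shares of 0.0421%, 0.021% and 0.252%. Some of the 15 reached that level only through dek3-2 replicate 1, such as CLO1, at 7.71 FPKM there and 0.0371 to 1.08 elsewhere. The lack of calls therefore decides nothing for them. At an unadjusted p under 0.05 there were 0, 0 and 1 of the 15 tested, against 3.44%, 1.97% and 18.6% of all genes. The median difference from Col-0 was 0.44 in dek3-2, with 29 of 35 above 0, -0.04 in dek4-2, with 11 above 0, and 0.20 in dd-2, with 28 above 0. Without dek3-2 replicate 1 the dek3-2 median was 0.03, and without dd-2 replicate 2 the dd-2 median was 0.02. In dek3-2 replicate 1 taken alone, 15 of the 35 were at least 1 higher than the Col-0 mean on the log2 scale, against 0.421% of all genes tested. In dd-2 replicate 2 it was 4, against 0.431%, in dd-2 replicate 1 it was 2, against 0.805%, and in the other 3 mutant libraries it was 0, against 0.163% to 0.258%. The 35 include genes too low for testing, while the shares are over genes that were tested.

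**Figure D4:**
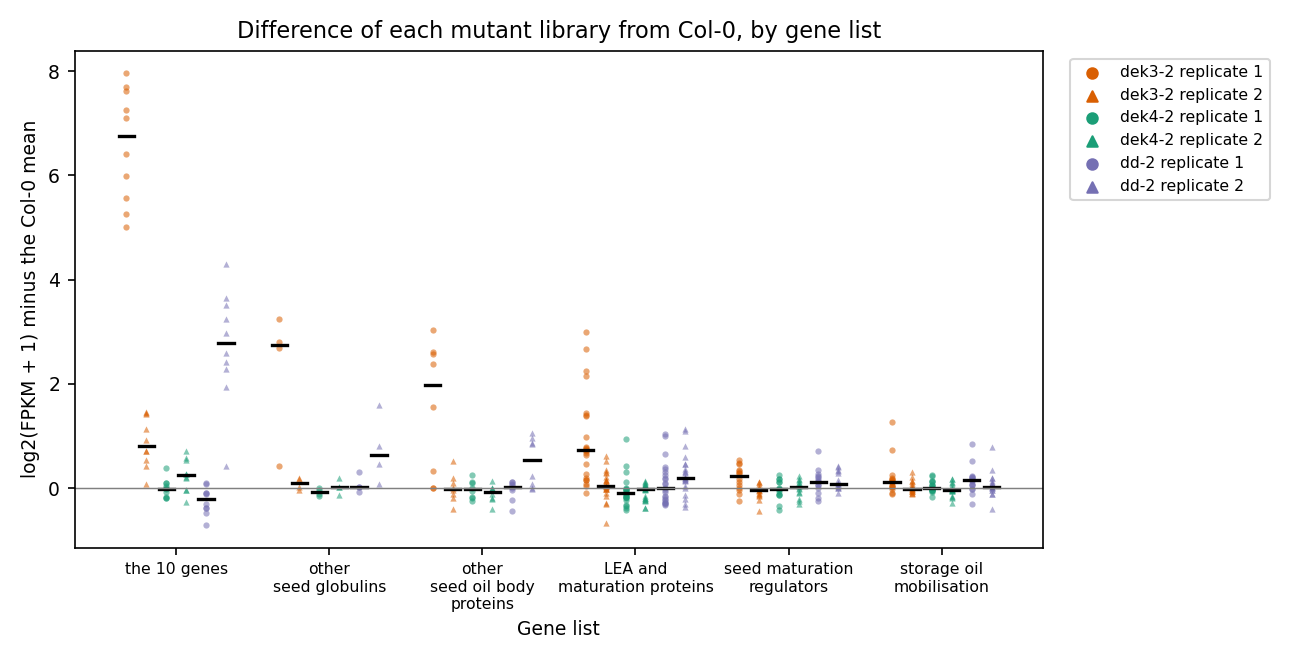
Difference of each mutant library from the Col-0 mean on the log2(FPKM + 1) scale for the 10 genes and 5 other lists, with 1 point per gene and a bar at the median. The bar of dek3-2 replicate 1 falls from 6.76 for the 10 genes to 2.74, 1.97 and 0.74 for the other globulins, oil body proteins and LEA proteins, and lies at 0.23 and 0.12 for the regulators and the oil mobilisation genes.

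The regulators of seed maturation were examined for the same pattern. Of 15 listed, BZIP53 was not analysed here. Of the other 14, 4 were highest in dek3-2 replicate 1. The level for testing was reached by 5, of which 0 were called in any mutant, against 0.0421%, 0.021% and 0.252% of all genes. At these shares a count of 0 among so few genes decides nothing. Median differences from Col-0 were 0.09 (dek3-2), 0.03 (dek4-2) and 0.12 (dd-2), beside 0.04, 0.00 and 0.08 over all genes. The dek3-2 median turned to -0.04 without dek3-2 replicate 1, and the dd-2 median was 0.13 without dd-2 replicate 2. The bZIP genes BZIP25 (37.3 to 44.2 FPKM) and BZIP10 (32.2 to 41.1), whose products bind G-box-like elements of storage promoters, were even across all 8 libraries. EEL ran from 4.24 to 8.29 and WRI1, a regulator of oil synthesis, from 3.61 to 4.57. The embryo regulators ABI3, FUS3, LEC1, LEC2 and L1L, named here although too low for the rule on naming, stayed under 1 FPKM in all libraries. In dek3-2 replicate 1 ABI3 stood at 0.560 FPKM and FUS3 at 0.279, beside 196 for CRA1. ABI3 was highest there and second in dd-2 replicate 2, at 0.365, with 0.163 to 0.311 elsewhere. FUS3, LEC1, LEC2 and L1L were highest in other libraries. BZIP67, named after its values were seen, stood at 0.782 FPKM in dek3-2 replicate 1 and 0.0951 to 0.343 elsewhere. AGL67, a MADS-box gene also named after its values were seen, stood at 0.541 FPKM in dek3-2 replicate 1, 0.293 in dd-2 replicate 2 and 0.0393 to 0.171 elsewhere. Of the 8 repressors of the seed programme all were tested and 0 were called, with median differences of 0.09, 0.02 and 0.15, or 0.02 for dek3-2 and 0.11 for dd-2 without those libraries. PKL ran from 14.9 to 22.6 FPKM, the Polycomb genes SWN from 14.5 to 19.7 and EMF2 from 14.4 to 17.04, and ASIL1 from 18.2 to 21.2.

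The reserves made by these genes are used up after germination, and the genes for that step were compared next. Of 17 genes for the breakdown of storage oil, all were tested and 0 were called in any mutant, against 0.0421%, 0.021% and 0.252% of all genes. At an unadjusted p under 0.05 in limma's test there were 2, 0 and 4, against 3.44%, 1.97% and 18.6% of all genes. The median differences were 0.05, 0.04 and 0.09 beside 0.04, 0.00 and 0.08 over all genes, and without the libraries that stood apart they were -0.01 in dek3-2 and 0.15 in dd-2. Of the 17 genes, 5 were highest in dek3-2 replicate 1 and 6 in dd-2 replicate 1. The 4 most abundant were PMDH2 (795 to 1128 FPKM), KAT2 (186 to 221), PCK1 (135 to 155) and ACX1 (86.5 to 103), and these 4 were not among the 5 highest in dek3-2 replicate 1. PMDH2, a peroxisomal malate dehydrogenase gene, had the lowest adjusted p of the list in limma's test, in dd-2, where its difference was -0.35 (adjusted p = 0.1495). The glyoxylate cycle gene ICL, named after its values were seen, stood at 1.71 and 1.39 FPKM in Col-0, 5.13 and 2.17 in dek3-2, 1.97 and 1.26 in dek4-2, and 3.55 and 3.38 in dd-2. Its values in all 4 dek3-2 and dd-2 libraries exceeded both Col-0 values, but its difference of 0.79 in dek3-2 (limma adjusted p = 1) and of 0.81 in dd-2 (0.202) did not pass. The malate synthase gene MLS, also named after its values were seen, stood at 2.55 FPKM in dek3-2 replicate 1, 1.69 in dd-2 replicate 2, 1.47 in dek3-2 replicate 2 and 0.739 to 1.41 in the other 5, the same 3 highest libraries in the same order as CRA1. Of the 7 genes for synthesis of seed oil, 6 were tested and 0 called, against 0.0421%, 0.021% and 0.252% of all genes. Their median differences were 0.01, 0.01 and -0.03, or -0.10 for dek3-2 and -0.02 for dd-2 without the libraries that stood apart. The gene too low for testing, FAE1, named after its values were seen, stood at 1.37 FPKM in dek3-2 replicate 1 and 0.167 to 0.669 elsewhere.

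Storage proteins are sorted to the vacuole and cut there by vacuolar processing enzymes. Of 7 genes for these steps, 6 were tested and 0 called, against 0.0421%, 0.021% and 0.252% of all genes. At an unadjusted p under 0.05 in limma's test there were 0, 0 and 3, against 3.44%, 1.97% and 18.6% of all genes. The median differences were 0.11, 0.06 and 0.24, or 0.09 for dek3-2 and 0.30 for dd-2 without the libraries that stood apart. The seed form BETA-VPE, which cuts cruciferin and albumin precursors, stood at 4.04 and 4.00 FPKM in Col-0, 8.74 and 5.01 in dek3-2, 4.18 and 6.58 in dek4-2, and 9.19 and 5.89 in dd-2. Its highest value lay in dd-2 replicate 1, the library where 6 of the 10 storage genes were lowest, so it did not follow them. GAMMA-VPE, the vegetative form, ran from 275 to 354 FPKM, the sorting receptor gene VSR1 from 68.8 to 86.8 and the retromer gene VPS29 from 112 to 127.

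Of 18428 other protein-coding genes that passed the filter, the 15 whose log2(FPKM + 1) was most like the mean of the 10 over the 8 libraries had Pearson's r of 0.962 to 0.995 and Spearman's rho of 0.357 to 0.857. All 15 were highest in dek3-2 replicate 1. The likeness rests on the 2 libraries that stood apart, since over the other 6 their r ran from -0.54 to 0.88 with a median of 0.21. Of the 15, 9 were on the seed lists: OLEO3, CLO1, PER1, CRD, PAP85, TIP3-1, AT2G28490, OLEO4 and AT3G01570. The other 6 were on no list. Of these ATTI7, annotated as a knottin family protein, stood at 38.4 FPKM in dek3-2 replicate 1 and 4.67 in dd-2 replicate 2, the thionin gene AT2G15010 at 29.8 and 5.14, and the glycine-rich protein gene AT2G05580 at 22.7 and 2.40. The AWPM-19-like gene AT1G04560 stood at 8.45 and 2.21, and the cupin family gene AT4G36700, of the same superfamily as the cruciferins, at 5.46 and 1.015. AT5G54890, which encodes a CRM domain protein, had the same shape over a narrow range of 5.05 to 6.23 FPKM.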

How the data were processed

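RNA sequencing of 8 libraries from whole seedlings was used, with 1 deposited file per library. Values are FPKM per gene as deposited, per the file headers, for 33557 genes. Per the submitters' processing notes the build was TAIR10 and the tools included HISAT2, featureCounts and edgeR. Tool versions and the program that wrote the FPKM are not given there. The library kit was directional per the labels' protocols, but whether strand was used in counting is not given in the sources used here, so values of genes overlapping on opposite strands are uncertain.

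The 10 genes and all lists were chosen with earlier results of these data known. On log2(FPKM + 1), limma 3.58.1 in R 4.3.3, with variance trend and robust estimation, was run as 1 model of all 8 libraries with 1 mean per genotype. The filter was a mean of 1 FPKM or more, which left 19017 genes, and a call needed a p below 0.05 after Benjamini-Hochberg adjustment over these. The model was also run on simulated data with independent noise, in which only genes well above the floor were changed. No library stood apart in those data, so that run does not cover the case of the 10 genes.

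The files hold no counts. In single-exon genes of 1000 to 6000 bp, 99.9% to 100% of low values fell within 0.15 of a whole fragment, where chance gives 30%. From this step 1 FPKM on 1 kb stood for 24.45 to 34.35 fragments after an end correction of 180 or 190 bp. No count test was run, since the step was read on part of the genes.

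Genes named are the 10, up to 4 of the highest mean FPKM on each other list and any called, the listed cell type markers, DEK3 and DEK4, and the 15 nearest by Pearson's r. Any other name is stated as such. Promoters and coding sequences came from RefSeq TAIR10.1, where 32813 of the 33557 genes were found. Coding sequences were aligned end to end. Python 3.11.15 and matplotlib 3.10.9 were used for the tables and figures. Alternatives were a pseudocount of 0.1, no filter, median-of-ratios scaling, a fit of the 2 groups compared, the replicate number as a block, limma without trend or robust estimation, leaving out each library, and, chosen after seeing the data, leaving out dek3-2 replicate 1 with dd-2 replicate 2.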

Additional observations from a re-analysis of the deposited data

How the results depend on the processing

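The count of the 10 genes called was 0 in every genotype under each alternative that kept 2 libraries per genotype. The fit without dek3-2 replicate 2, where dek3-2 replicate 1 stood alone, is described above. Nothing is read from these calls, since every alternative with a filter used the mean over all 8 libraries and so kept all 10 genes. Their median log2 difference from Col-0 ran over the single libraries left out from 0.82 to 6.76 in dek3-2, from -0.011 to 0.24 in dek4-2 and from -0.20 to 2.79 in dd-2, and with a pseudocount of 0.1 the dek4-2 value was 0.26. Over the other 35 seed maturation genes that pseudocount gave medians of 0.94 (dek3-2), -0.12 (dek4-2) and 0.46 (dd-2). Leaving out single libraries gave 0.03 to 0.78, -0.11 to 0.0085 and 0.02 to 0.24. Genes on this list were called only in dek3-2 without dek3-2 replicate 2. There dek3-2 replicate 1 was the 1 dek3-2 sample, so nothing is read from those calls. For the oil mobilisation genes the ranges were -0.0099 to 0.12, -0.035 to 0.029 and 0.02 to 0.15, with 0 called. Over all genes, leaving out single libraries gave 7 to 16 calls in dek3-2 (8 with all, 16 without dek3-2 replicate 2), 3 to 10 in dek4-2 (4 with all) and 10 to 35 in dd-2 (48 with all). With no filter there were 14 in dek3-2 and 26 in dd-2. A fit of the 2 groups alone gave 16 in dd-2, and limma without trend or robust estimation 23. Without both dek3-2 replicate 1 and dd-2 replicate 2 there were 14 in dek3-2 and 15 in dd-2. The cause of these shifts was not tested. Median-of-ratios scaling moved the split in dd-2 from 27 higher and 21 lower to 19 and 30.

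With the replicate number as a block the calls were 305 in dd-2 (210 higher, 95 lower), 7 in dek3-2 and 4 in dek4-2, and 0 of the 10 genes. Whether libraries of the same number were handled together is not given in the sources used here. The replicate differences of 2 genotypes correlated across genes at -0.07 to 0.23, highest for Col-0 with dek4-2. Such correlations cannot decide it, since a shared step could touch few genes or only some genotypes. A genotype left with 1 library was assumed to vary like the others. With 2 libraries a genotype, and 2 to 14 fragments per albumin gene in Col-0, small differences of these genes between genotypes were not detectable at this depth.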

Other observations

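In each library the genes that stood at least 2 higher on the log2(FPKM + 1) scale than in every other library were counted, a rule chosen after the data were seen. Of 19017 genes there were 21 in dek3-2 replicate 1, of which 18 were at least 300 bp long, and all 10 storage and oleosin genes were among them. With those 10, 13 were on the seed lists. In each of the other 7 libraries there were 3 to 6 such genes, of which 0 to 2 were at least 300 bp long, and none was a storage or oleosin gene. The 10 genes and the lists were chosen with earlier results of these data known. Without dek3-2 replicate 1, 8 of the 10 would have passed the filter. Nothing is therefore read from the counts of storage, oleosin or seed list genes. Of the genes of dek3-2 replicate 1 on no list, ATS3, at 7.77 FPKM there and 0.529 and 0.483 in Col-0, was outside the 15 genes nearest to the storage genes.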
